A study of Mus musculus with 3 samples.

Results

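The genes described here encode the core and linker histones, which package DNA and most of which stand side by side in gene clusters. They were taken as the protein-coding mouse genes of the mm10 RefSeq annotation whose symbol is that of an H1, H2A, H2B, H3 or H4 gene of the clustered families (H1f, H2ac, H2bc, H3c and H4c, or the older Hist names). The rule found 67 genes of 21887 protein-coding genes: 10 of H1, 17 of H2A, 16 of H2B, 12 of H3 and 12 of H4. It used names alone, so it also took H1 genes that stand by themselves and histone genes known for germ cells. The study mapped Flag-tagged Bcl11a, a zinc finger repressor of transcription, in 3 CUT&Tag libraries of LSK cells sorted from mouse bone marrow. LSK cells lack markers of mature blood lineages, carry Sca-1 and Kit, and include the blood stem cells. In CUT&Tag an antibody brings a transposase to a chromatin protein so that nearby DNA is tagged for sequencing. Per the design text the mice were knock-ins with a 3xFlag tag on the N-terminal end of Bcl11a, while the genotype label of each library reads wildtype. Replicates 1, 2 and 3 form a single group with no second group, no age is given, and nothing states that they came from separate animals.

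Most histone genes of the clusters are switched on when a cell copies its DNA. Their short transcripts have no introns and, in place of a poly(A) tail, end in a stem-loop that the protein SLBP binds. Their transcription and processing take place in histone locus bodies, which form around the clusters on the scaffold protein NPAT. H2A and H2B form a dimer, H3 and H4 a tetramer, and DNA wraps around a core of both, while H1 binds the linker DNA between cores. In the clusters, H2A and H2B genes often lie back to back and share a promoter.

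The deposited lists held 38739, 36466 and 43469 peaks in libraries 1, 2 and 3, and the background they imply was 1.07, 1.41 and 1.95 fragments per base, so library 1 rests on the thinnest coverage. Overlapping peaks were joined into regions, and 22987 regions to which each of the 3 libraries gave a peak were called reproducible. A gene was called occupied when such a region lay within 1 kb of either outer end. Libraries without the tag, without antibody or of input DNA were not analysed here, and occupied means only that tagged DNA gathered there. Whether that came from the tagged protein or from open chromatin was not tested. Of the genes that define the sort, Kit was occupied (5.89 ± 0.26-fold, SD, n = 3) and Ly6a, the gene of Sca-1, had a peak in 1 library only. Of 7 lineage marker genes 0 were occupied, where 45.2% of all protein-coding genes were, and Cd3e, like Ly6a, had a peak in 1 library. Peaks are not a measure of expression. With a single group no test between conditions can be made, so all values below are descriptions, and SDs give the spread between these libraries.

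Of the 67 histone genes, 60 were occupied (89.6%), where 45.2% of all protein-coding genes were. In single libraries 59, 62 and 61 histone genes had a peak at an end, where the share of all protein-coding genes was 50%, 52.5% and 53.9% in libraries 1, 2 and 3. Histone genes are short, and their ends lie close together. Among genes of at most 3 kb, 56 of 62 histone genes were occupied, where 18.8% of all protein-coding genes of that length were. Every H3 gene was occupied (12 of 12), as were 16 of 17 H2A genes, 15 of 16 H2B genes, 10 of 12 H4 genes and 7 of 10 H1 genes. The genes are not independent, because 42 regions served all 60 of them.

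Close neighbours often shared a region. Of the 42 regions, 17 lay within 1 kb of a single histone gene, 20 of a pair and 5 of 3 genes, so that 25 regions were shared. For 45 genes the strongest region at their ends was a shared one. The 5 regions with 3 genes were those of H2ac21, H2ac20 and H2bc21 on chromosome 3, and on chromosome 13 those of H2bc13, H2ac13 and H3c10, of H2bc23, H2ac23 and H4c17, of H2bc7, H2ac7 and H3c4, and of H4c1, H3c1 and H1f1. The regions were 320 to 2891 bp wide with a median of 957 bp, where the median of all reproducible regions was 752 bp. The strongest region covered an end of 48 occupied genes and came within 250 bp of an end of 4 more. For the other 8 it lay farther off, in several cases over a neighbouring histone gene. Of these, H3c10 (613 bp), H3c3 (595 bp) and H1f1 (942 bp) had no nearer region.

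Fold enrichment and pileup rank the histone genes differently. Fold enrichment is the deposited ratio of the tagged fragments at a peak's summit to the background the peak caller expected there, and it was averaged over the 3 libraries for the strongest region of each gene. The occupied histone genes had a median of 6.18, against 7.41 for all occupied protein-coding genes, and 18 of 60 histone genes lay above that value. In libraries 1, 2 and 3 the histone medians were 6.29, 6.33 and 6.12 (6.25 ± 0.11, SD, n = 3), against 7.39, 7.66 and 7.15 for all occupied protein-coding genes. Among genes of at most 3 kb the gap was smaller, with 6.13 for occupied histone genes and 6.36 for occupied protein-coding genes.

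The number of fragments at the summit gave the other order. This pileup was solved from the deposited fold and −log10 p, and divided by the lowest background of the library. Its median was 34.3 times background for occupied histone genes, against 21.6 for all occupied protein-coding genes, and 52 of 60 histone genes lay above that value. By library the histone medians were 32.8, 34.8 and 32.9, against 22.5, 22.7 and 19.5. The background the caller expected at the summit moved in the same way: it was 4.19 times the library's lowest background for histone genes and 2.24 times for all occupied genes, and 60 of 60 histone genes lay above that median. Among genes of at most 3 kb, occupied histone genes had a median pileup of 33.1 and an expected background of 4.37 times the library's lowest, against 24.7 and 3.13 for occupied protein-coding genes. Fold is divided by this expected background, and its part in the lower fold was not tested.

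**Figure D1:**
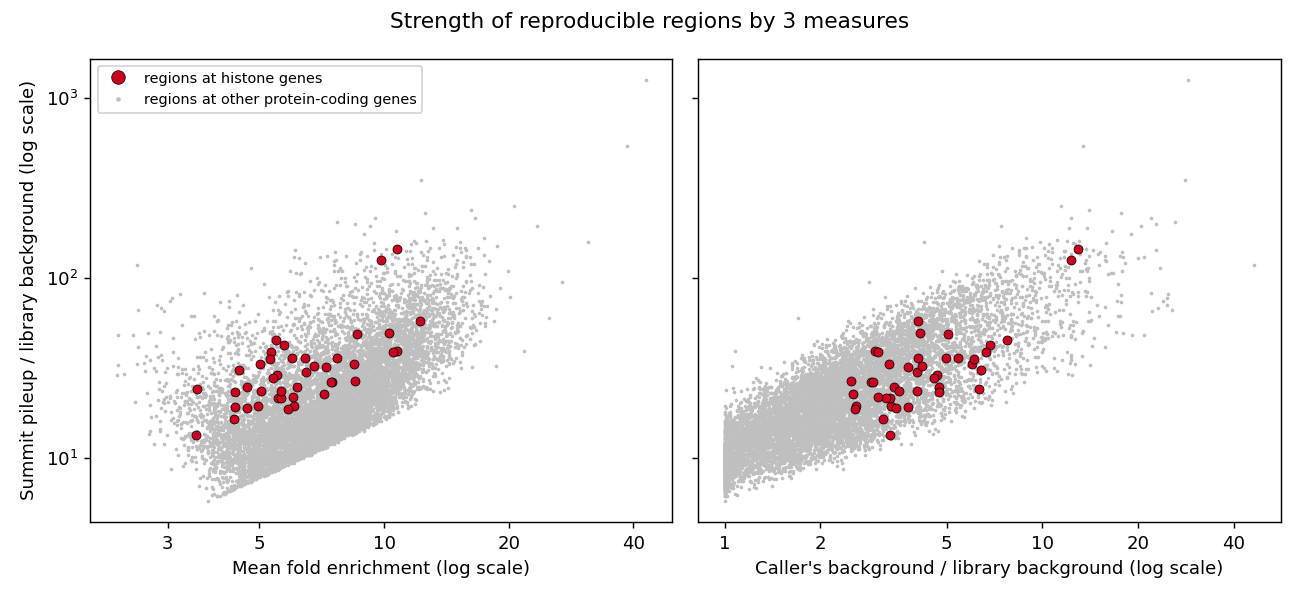
Each point is a reproducible region, with summit pileup over library background against mean fold enrichment (left) and against the caller's background over library background (right), all on log axes and as means of 3 libraries. Regions at histone genes (42, red) lie among those at other protein-coding genes (grey); 40 of the 42 are above the median pileup of all reproducible regions and 17 above the median fold.

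The histone genes of chromosome 13 stand in 4 stretches when split at gaps of over 100 kb. The first, H2bc13 to H2ac24, spans 118 kb and had 16 of 17 genes occupied by 10 regions. The second, H2ac12 to H2bc11, spans 8.54 kb and had 5 of 5 genes occupied by 3 regions. The third, H4c8 to H1f1, spans 233 kb and had 27 of 29 genes occupied by 21 regions. The fourth holds only H2bc1 and H2ac1, and neither was occupied.

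On chromosome 3 a single stretch of 50.3 kb, H2ac21 to H2bc18, had 10 of 10 genes occupied by 6 regions. Its median fold was 8.53, against 5.98 for the 48 of 53 genes occupied on chromosome 13. Pileup over background had medians of 44.8 on chromosome 3 and 35.3 on chromosome 13. The chromosome 3 values spread widely, with folds of 4.35 to 12.2, and rest on few regions. The other 4 genes stand alone: H1f10 and H1f8 on chromosome 6, H1f0 and H1f7 on chromosome 15.

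**Figure D2:**
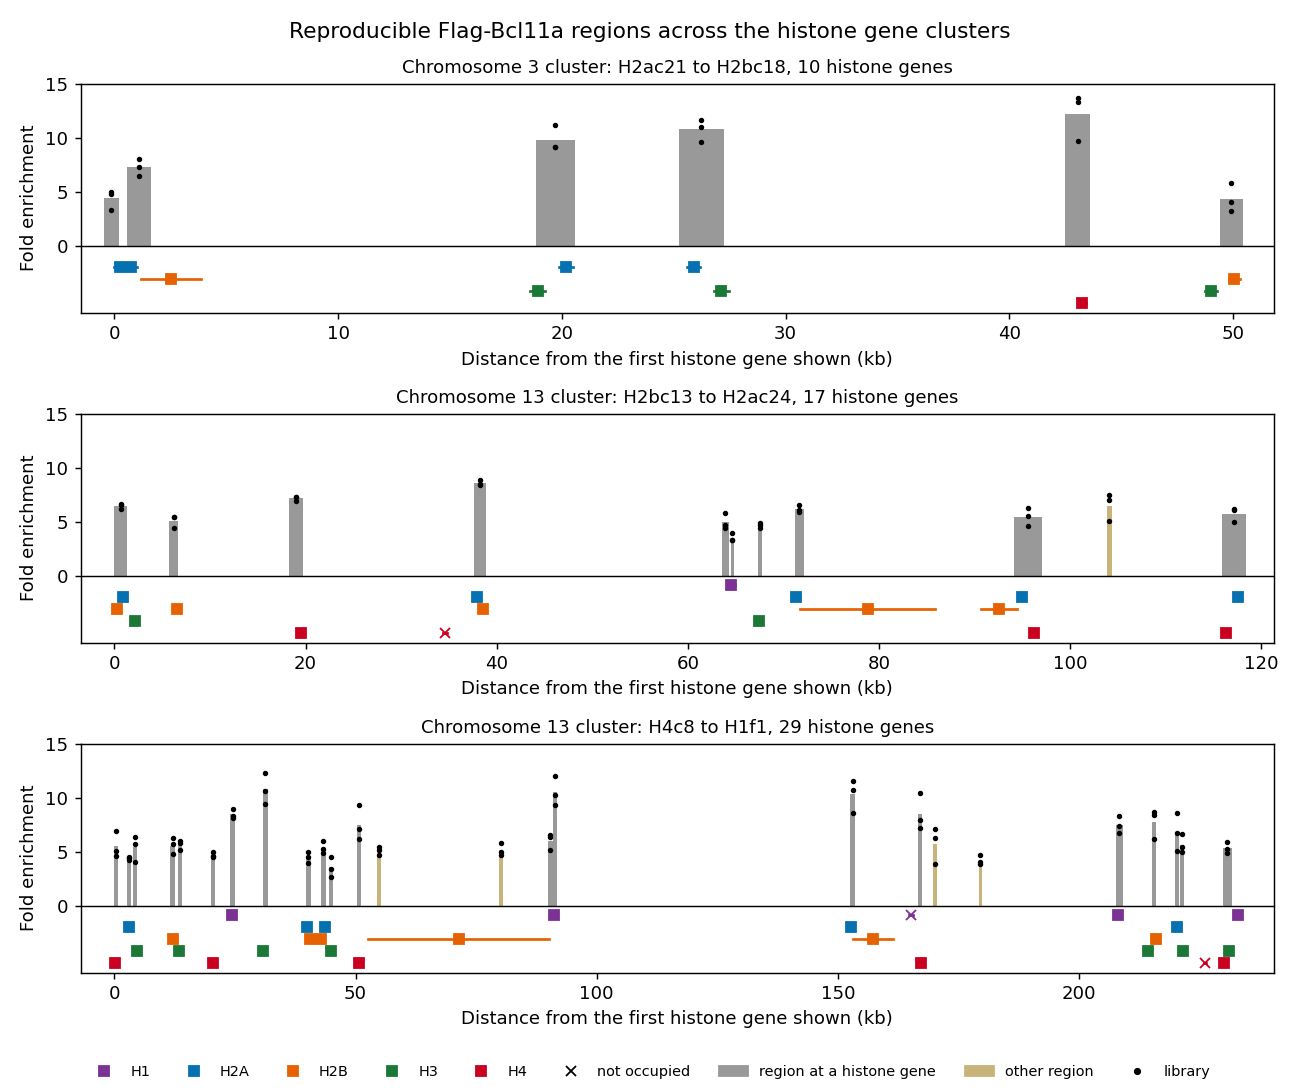
Bars give the mean fold enrichment of each reproducible region (grey at histone genes, tan elsewhere on chromosome 13) against distance in kb from the first histone gene shown, and black points give the 3 libraries. Squares and lines below mark the histone genes by type, crosses those not occupied; all 10 genes of the chromosome 3 stretch are squares, while the chromosome 13 stretches shown have 1 and 2 crosses.

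The highest pileups stood at an inverted repeat of H2A and H3 genes on chromosome 3. H2ac18 and H3c14 shared a region (chr3:96245106-96247127) with 166, 196 and 277 fragments at the summit in libraries 1, 2 and 3, and folds of 11.7, 9.62 and 11 (10.8 ± 1.05, SD, n = 3). The mirror pair, H2ac19 and H3c15, shared one (chr3:96238708-96240457) with 123, 179 and 265 fragments and folds of 9.12, 9.12 and 11.2 (9.81 ± 1.19, SD, n = 3). These pileups were 146 and 126 times background, higher than at 99.6% and 99.1% of occupied protein-coding genes, whereas the folds were higher than at 85.7% and 78.1%. The library with the most coverage, library 3, also had the most fragments at both.

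The promoters of this repeat are copies of each other, so fragments from either may have been assigned to the other. The sources used here do not say how reads with several matches were treated, so the values of the copies are uncertain. The 250 bases before the starts of H3c14 (chr3:96246435-96246684, plus strand) and H3c15 (chr3:96239128-96239377, minus strand) are printed 5′ to 3′ from RefSeq (GRCm38.p6), with the stretch of 231 bases that is identical in both in capitals.
H3c14: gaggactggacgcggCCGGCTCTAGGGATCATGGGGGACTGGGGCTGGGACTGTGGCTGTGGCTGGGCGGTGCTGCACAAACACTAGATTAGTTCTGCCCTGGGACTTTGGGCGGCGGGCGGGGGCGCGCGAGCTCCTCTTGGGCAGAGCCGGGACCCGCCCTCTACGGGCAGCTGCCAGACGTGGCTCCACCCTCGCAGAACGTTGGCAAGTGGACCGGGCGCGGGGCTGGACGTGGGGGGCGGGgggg
H3c15: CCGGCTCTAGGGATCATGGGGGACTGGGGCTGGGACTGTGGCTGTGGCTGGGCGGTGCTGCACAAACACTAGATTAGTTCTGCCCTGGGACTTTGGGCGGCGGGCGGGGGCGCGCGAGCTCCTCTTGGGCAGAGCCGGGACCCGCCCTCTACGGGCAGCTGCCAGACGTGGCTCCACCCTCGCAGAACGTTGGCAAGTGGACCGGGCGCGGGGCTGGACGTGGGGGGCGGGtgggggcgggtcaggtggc
The promoters of H2ac18 and H2ac19 share an identical run of 169 bases.

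Promoters are also copied on chromosome 13. H4c17 (chr13:21811496-21811745, plus strand) and H4c18 (chr13:21832198-21832447, minus strand) are identical over 249 of the 250 bases before their starts, in capitals here (RefSeq, GRCm38.p6).
H4c17: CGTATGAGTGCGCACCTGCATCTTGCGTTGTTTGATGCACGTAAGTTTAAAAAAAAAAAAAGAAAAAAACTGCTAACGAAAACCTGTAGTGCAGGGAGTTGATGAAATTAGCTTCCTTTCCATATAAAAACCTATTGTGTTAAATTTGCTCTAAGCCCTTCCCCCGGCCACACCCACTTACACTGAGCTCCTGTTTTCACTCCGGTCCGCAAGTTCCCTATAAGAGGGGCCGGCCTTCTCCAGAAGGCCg
H4c18: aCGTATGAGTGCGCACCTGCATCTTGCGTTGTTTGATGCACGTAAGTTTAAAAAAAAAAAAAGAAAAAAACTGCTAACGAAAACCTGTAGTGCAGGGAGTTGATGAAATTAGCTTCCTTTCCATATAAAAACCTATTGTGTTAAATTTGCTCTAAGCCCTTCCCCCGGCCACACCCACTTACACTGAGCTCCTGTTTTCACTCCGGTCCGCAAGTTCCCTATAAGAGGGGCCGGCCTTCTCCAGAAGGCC
The region of H4c17, H2ac23 and H2bc23 had 49, 71 and 76 fragments at the summit in libraries 1, 2 and 3 and a fold of 5.47 ± 0.84 (SD, n = 3). That of H4c18 and H2ac24, which also reaches the non-member coding gene H4bc24, had 48, 58 and 80 fragments and 5.75 ± 0.65 (SD, n = 3). The values of the regions overlap. In the first, all 3 summits lay nearest to the start of H4c17. In the second, the summit lay at H4c18 in library 1 but at H2ac24 in libraries 2 and 3. These values therefore do not compare the H4 copies alone. Both regions, the widest of the clusters at 2891 and 2566 bp, joined more than 1 peak of a library. None of their histone genes was occupied when peaks were joined by 50% reciprocal overlap. H2ac23 and H2ac24 share a further run of 150 bases.

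Back-to-back pairs of H2A and H2B genes were occupied across the shared promoter. Of 9 pairs with both starts listed by RefSeq and facing away from each other within 300 bp, 8 were occupied, and in all 8 the region covered both starts. Over all 9 the starts lay 163 to 280 bp apart. Of 589 other such pairs of coding genes, 508 (86.3%) were occupied, and in 496 of the 508 the region covered both starts, so most other pairs did the same. Among the 8 histone pairs, H2ac15 and H2bc15 had the highest fold, with 8.38, 8.86 and 8.51 in libraries 1, 2 and 3 (8.58 ± 0.25, SD, n = 3) and 47, 82 and 87 fragments. H2ac8 and H2bc8 had the lowest, with 4.95, 3.93 and 4.54 (4.47 ± 0.52, SD, n = 3) and 34, 43 and 59 fragments. Their ranges of fold do not overlap, but the pairs were picked as the highest and lowest by these same values. The other occupied pairs lay between them. Of these, H2bc13 and H2ac13 had 6.44 ± 0.22, H2ac22 and H2bc22 6.18 ± 0.31, H2ac11 and H2bc11 5.98 ± 0.51, and H2bc7 and H2ac7 5.34 ± 0.55 (SD, n = 3). At the last of these the fragments at the summit numbered 35, 58 and 81, more in library 3 than in library 1, as at every pair. These counts are not scaled for coverage, which was thinnest in library 1. Divided by library background, the order differed between pairs. Libraries 1 and 3 had 32.8 and 41.6 at H2bc7 and H2ac7, but 45.9 and 39.1 at H2bc23 and H2ac23.

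The sequence between the starts is shown for a pair with the highest fold, for a pair with an octamer, and, as the 250 bases before H2bc1, for the germ cell pair that had no peak. All are from RefSeq (GRCm38.p6), 5′ to 3′, at chr13:21753913-21754075 (plus strand), chr13:22035644-22035820 (plus strand) and chr13:23934157-23934406 (minus strand). Capitals mark matches on both strands. CCAAT is the box that the factor NF-Y binds in many promoters of dividing cells. TATAAA is the TATA box of the general transcription machinery, and ATTTGCAT the octamer known from H2B promoters. TGACCA is a motif of the BCL11A zinc fingers. The motif AAACACA is known from promoters of H1 genes.
H2ac15-H2bc15: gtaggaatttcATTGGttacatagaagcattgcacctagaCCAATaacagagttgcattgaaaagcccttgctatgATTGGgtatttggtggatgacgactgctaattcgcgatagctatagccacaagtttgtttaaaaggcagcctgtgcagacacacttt
H2ac12-H2bc12: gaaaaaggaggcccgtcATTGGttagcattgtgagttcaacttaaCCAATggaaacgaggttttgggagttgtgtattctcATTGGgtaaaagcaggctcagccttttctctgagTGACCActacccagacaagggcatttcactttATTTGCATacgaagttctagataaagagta
H2bc1: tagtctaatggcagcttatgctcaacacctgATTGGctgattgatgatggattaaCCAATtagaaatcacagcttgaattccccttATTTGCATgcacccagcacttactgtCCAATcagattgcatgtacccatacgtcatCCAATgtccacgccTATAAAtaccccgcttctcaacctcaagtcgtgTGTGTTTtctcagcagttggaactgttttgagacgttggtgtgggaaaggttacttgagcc
H2ac12 and H2bc12 had folds of 6.84, 6.88 and 5.73 (6.49 ± 0.65, SD, n = 3). All 3 sequences hold several CCAAT boxes, and the octamer stands in the occupied H2ac12-H2bc12 sequence and in the H2bc1 sequence without a peak.

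Few summits lay between the starts of the pairs. Of 24 summits at the 8 occupied pairs, 1 fell between the starts (4.17%), against 25.1% of 1524 summits at the other occupied pairs of coding genes, whose starts lie closer together (a median of 179 bp for the histone pairs and 111 bp for the others). The 3 summits of the H2bc23 and H2ac23 region are among the 24, although they lie over 1 kb away, at the start of H4c17. Around all listed histone starts, the median summit lay 102.5 bp inside the gene, against 0.5 bp at other protein-coding genes. Of 120 summits, 64.2% lay 0 to 250 bp inside the gene and 13.3% lay 1 to 250 bp before it. At other genes the shares were 37.1% and 37.4% of 20482 summits. Between back-to-back histone starts a summit cannot lie 250 bp before its nearest start, which limits the share before starts. The part of this limit in the difference was not tested. Summits at H2A and H4 starts lay inside in most cases (medians of 133 and 123 bp), as did those at H1 starts (211 bp). Of 18 H1 summits, 10 lay 0 to 250 bp inside and 7 lay far from the start, some past the 3′ end of H1f5 or H1f2. Summits at H3 starts lay close to the start (28 bp) and those at H2B starts before it in the median (-52 bp). The H2B value includes 3 summits placed over 1 kb before H2bc9, which lie inside H3c7, a gene with no listed start. It also includes summits at -608 to -359 bp from H2bc6, between that gene and the 3′ end of H1f4. Summits before H2bc14 and H2bc3 lie in regions that also reach pseudogenes. Whether these summits belong to the H2B genes or to their neighbours was not tested.

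**Figure D3:**
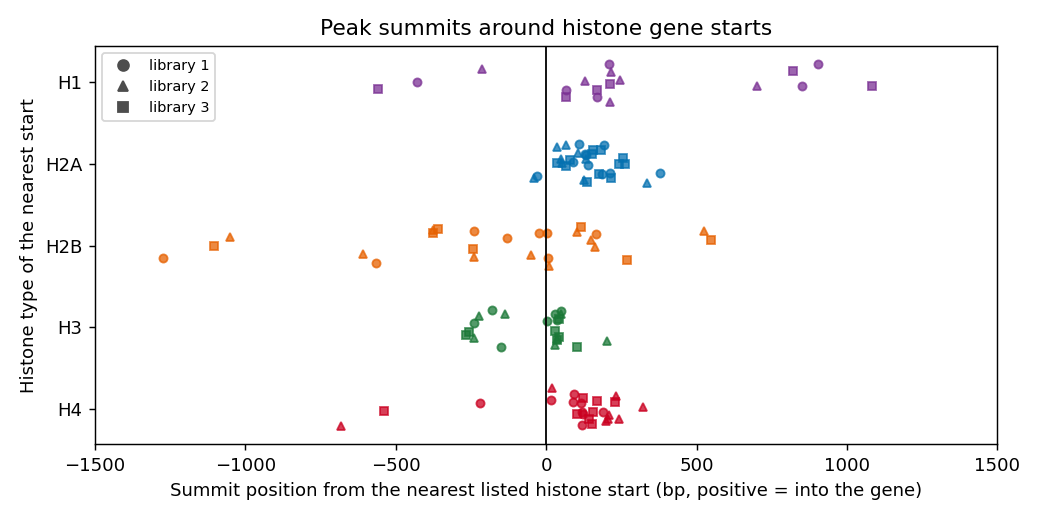
Each point is the summit of a reproducible region in 1 library, placed by its distance in bp from the nearest listed histone start, by histone type, with marker shapes for the 3 libraries. For H2A and H4 most points lie to the right of 0, inside the gene, while H2B points lie on both sides.

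A gene can share the summit of its neighbour, and in a region the 3 libraries placed their summits a median of 141 bp apart. Summits before a start by 1 to 250 bp made up 20%, 17.5% and 2.5% of those in libraries 1, 2 and 3. The position is therefore less certain than the occupancy. Of 62 histone genes with a listed start, 50 had a region within 250 bp of it, where 44.7% of protein-coding genes did. Occupied genes without such a region were H3c13, H3c10, H3c3, H1f1 and H1f0.

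**Figure D4:**
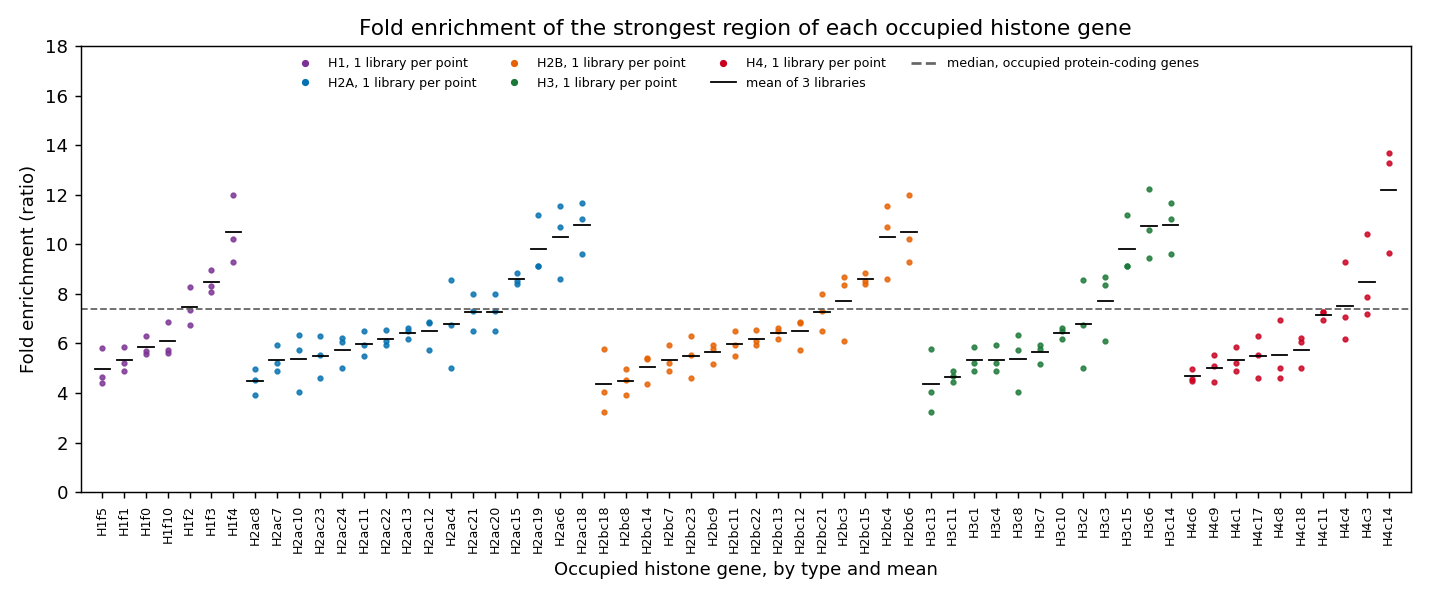
Coloured points give the fold enrichment of the strongest region of each of the 60 occupied histone genes in each library, black bars the mean of 3 libraries, and the dashed line the median of all occupied protein-coding genes (7.41). Genes are ordered by type and mean; 18 means lie above the line, and H4c14 has the highest.

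Among H4 genes, H4c14 of chromosome 3 (chr3:96262375-96263503) had the highest mean fold of all occupied histone genes. Its folds were 13.3, 13.7 and 9.65 in libraries 1, 2 and 3 (12.2 ± 2.22, SD, n = 3), with 63, 98 and 87 fragments, and library 3 was the low one. H4c3 had 7.88, 10.4 and 7.18 (8.49 ± 1.71, SD, n = 3). H4c6 was the weakest H4 gene, at 4.99, 4.58 and 4.47 (4.68 ± 0.27, SD, n = 3) and 21, 30 and 30 fragments. The lowest library of H4c3 was above the highest of H4c6, but these genes were picked after their values were seen.

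H4c12 and H4c2, both in the chromosome 13 cluster, were the only genes of the clusters with a peak in some but not all libraries and no reproducible region. H4c12 had a peak in library 2 alone, with a fold of 2.79 and 25 fragments. H4c2 had peaks in library 2 (3.00, 26 fragments) and library 3 (4.66, 52 fragments) and none in library 1, the thinnest. Their promoters are shown beside that of H4c4, which was occupied (9.28, 6.17 and 7.06, mean 7.50 ± 1.60, SD, n = 3), as 150 bases before the start, from RefSeq (GRCm38.p6): chr13:23581418-23581567 (plus strand), chr13:23756787-23756936 (plus strand) and chr13:21750554-21750703 (minus strand), with the same motifs in capitals.
H4c4: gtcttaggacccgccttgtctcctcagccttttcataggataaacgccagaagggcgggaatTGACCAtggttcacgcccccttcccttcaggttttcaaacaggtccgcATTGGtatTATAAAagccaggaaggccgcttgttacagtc
H4c2: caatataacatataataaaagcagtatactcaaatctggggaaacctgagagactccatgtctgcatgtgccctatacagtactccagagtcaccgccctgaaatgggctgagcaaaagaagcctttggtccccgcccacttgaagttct
H4c12: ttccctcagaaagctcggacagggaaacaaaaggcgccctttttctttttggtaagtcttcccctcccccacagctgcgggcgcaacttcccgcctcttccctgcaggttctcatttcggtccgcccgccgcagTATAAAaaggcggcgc
None of the 5 motifs is written in the 150 bases of H4c2, and H4c12 holds a TATAAA match; this says nothing of the factors. H4c12 shares a run of 72 bases with the promoter of H4c11, which was occupied at 7.15 ± 0.18 (SD, n = 3).

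Among H3 genes, H3c6 was high, with 12.2, 10.6 and 9.44 in libraries 1, 2 and 3 (10.7 ± 1.41, SD, n = 3) and 48, 57 and 62 fragments, at a region of its own (chr13:23561787-23562838). At the low end stood H3c13, with 5.77, 4.04 and 3.23 (4.35 ± 1.3, SD, n = 3), in a region shared with H2bc18 whose edge lies 133 bp past its 3′ end. H3c11 had 4.44, 4.68 and 4.87 (4.66 ± 0.22, SD, n = 3). The 3 values of H3c6 all exceeded those of H3c13 and H3c11, but these genes were named for their high or low folds.

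Of the H2A and H2B genes outside the listed pairs, H2ac6 and H2bc4, which are back to back but were not counted as a pair because H2bc4 has no listed start, shared a region with folds of 11.5, 10.7 and 8.60 (10.3 ± 1.52, SD, n = 3) and 57, 79 and 74 fragments. The chromosome 3 genes H2ac21, H2ac20 and H2bc21 shared a region with 7.99, 7.30 and 6.49 (7.26 ± 0.75, SD, n = 3) and 35, 47 and 57 fragments. In the third stretch of chromosome 13, H2bc3 and H3c3 shared a region with 6.12, 8.35 and 8.67 (7.71 ± 1.39, SD, n = 3), and H2ac4 and H3c2 one with 6.75, 5.02 and 8.56 (6.78 ± 1.77, SD, n = 3). The region of H2ac4 and H3c2 spread more between libraries than any other strongest region except that of H4c14. It lies 630 bp from H3c2, which also had a weaker region over its own start, at 5.65 ± 0.87 (SD, n = 3). H2bc14, whose region also reaches the pseudogene H2ac14, had 4.37, 5.38 and 5.41 (5.05 ± 0.59, SD, n = 3).

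The linker histone genes H1f1 to H1f5 of chromosome 13, which are active in body cells, were all occupied. H1f4 had folds of 9.29, 12 and 10.2 (10.5 ± 1.37, SD, n = 3) at a region that also lies within 1 kb of H2bc6, with 37, 68 and 65 fragments. H1f3 had 8.07, 8.98 and 8.32 (8.46 ± 0.47, SD, n = 3) and H1f2 6.75, 7.33 and 8.29 (7.46 ± 0.78, SD, n = 3). H1f5 was lower, at 5.82, 4.38 and 4.65 (4.95 ± 0.76, SD, n = 3), and this region lies over its 3′ end. A weaker region nearer to its start had 3.99, 3.28 and 3.28 (3.52 ± 0.41, SD, n = 3), below every value of H1f3.

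H1f1 was occupied only through a region of H4c1 and H3c1 that ends 942 bp away, with peaks of 2 libraries themselves within 1 kb, at 5.31 ± 0.48-fold (SD, n = 3). The replacement linker genes H1f10 and H1f0, which are expressed outside S phase, were both occupied. H1f10 had 6.86, 5.75 and 5.62 (6.08 ± 0.68, SD, n = 3) at its start, in a region shared with the lncRNA gene Gm5577. H1f0 had 5.69, 6.32 and 5.57 (5.86 ± 0.40, SD, n = 3) in a region 163 bp past its 3′ end, which also reaches Gcat, an amino acid metabolism gene, so it does not mark the H1f0 promoter.

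The 5 histone genes known for germ cells had no peak in any library. They are H1f6, H1f7, H2ac1 and H2bc1, expressed in the testis, and H1f8, expressed in the oocyte. This class was named after the values were seen. Of all protein-coding genes, 50%, 52.5% and 53.9% had a peak at an end in libraries 1, 2 and 3. Among the other 60 genes of the clusters, leaving out H1f10 and H1f0, 58 were occupied, where 45.2% of all protein-coding genes were. H1f6 lies within the third stretch of chromosome 13, where the nearest reproducible region is 1142 bp away, against 6756 bp for H1f8, 19242 bp for H2bc1, 19954 bp for H2ac1 and 74336 bp for H1f7. H1f6 stands near occupied neighbours, H4c3 and H2bc4.

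Short sequences known from histone promoters were common in the 250 bases before the starts of the members. The promoter table of RefSeq listed 63 promoters of 62 members. Promoters of the back-to-back H2A and H2B pairs overlap, sharing runs of 163 to 248 bases on opposite strands. A site in such a run counts for both genes, so the H2A and H2B counts are not independent. CCAAT, in either direction, was in 79.4% of them and in 33.8% of all 32851 promoters, and it stood in 17 of 17 H2A and 15 of 15 H2B promoters, but in 3 of 11 H4 promoters. TATAAA was in 44.4% against 12.4%. The octamer ATTTGCAT was in 20.6% against 1.60%, in 6 H2A and 7 H2B promoters and in 0 of the H1, H3 and H4 promoters. AAACACA, added after the data were seen, was in 14.3% against 6.25%, and in 5 of 10 H1 promoters.

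The BCL11A motif TGACCA was in 15.9% of histone promoters (10 of 63), against 11.4% of all promoters. Of the 10, 8 were of occupied genes (of 56 promoters) and 2 of unoccupied genes (of 7). The match between the starts of H2ac12 and H2bc12 is counted for both. In 5 promoters, H1f8, H3c10, H2bc6, H2bc3 and H3c2, the match overlaps a CCAAT match. The GC content of histone promoters was 45.2% in the median, against 55.6% for all coding promoters. It was 45% in occupied and 52.8% in unoccupied histone promoters, against 60.8% and 50% in those of coding genes. The number of CpGs over that expected from the base composition was 0.733 in occupied histone promoters, close to the 0.735 of occupied coding promoters. It was 0.410 in the 7 unoccupied histone promoters, against 0.287 in those of unoccupied coding genes.

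Between the stretches of chromosome 13, regions were sparser than within them. The stretches of chromosomes 3 and 13 held 45 reproducible regions in 411 kb, or 10.9 per 100 kb, of which 40 were at histone genes. The gaps between them on chromosome 13 held 16 in 1858 kb, or 0.861 per 100 kb, counting those that reach in from an edge, where the genome had 0.845. Of 50 other coding genes in the gaps 6 were occupied, where 45.2% of all protein-coding genes were. The 6 were H4bc24, Zfp184, Prss16, Zfp322a, Abt1 and Slc17a4. Of these, H4bc24, which the naming rule did not take, lies at the region of H4c18 and H2ac24. The pheromone receptor genes of the Vmn1r family made up 36 of the 50, with 0 occupied, and 1 of 231 in the genome was. All 6 were thus among the genes outside that family. Of the tRNA genes in the gaps 11 of 77 were occupied, where the share in the genome was 34.1%.

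The strongest region of the chromosome 13 span away from the histone genes had no gene within 1 kb (chr13:23799297-23800022). Its folds were 15.4, 14.5 and 10.8 (13.5 ± 2.45, SD, n = 3), above every histone gene mean. Next came a region at the tRNA gene n-TSgct5 (chr13:22050718-22051383) with 10.6 ± 0.94 (SD, n = 3) and that at Zfp322a. Inside the third stretch, Hfe, an iron regulator gene, was occupied as well.

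Of 33 genes listed for the synthesis and processing of histone mRNA, 32 were in the annotation. All 32 were occupied, where 45.2% of all protein-coding genes were. Their median fold was 7.64, against 7.41 for all occupied protein-coding genes. Npat, the scaffold of the histone locus body, had 14.6, 12 and 12.4 in libraries 1, 2 and 3 (13 ± 1.40, SD, n = 3). Mbtd1 had 14.5 ± 1.27 and Pou2af1, a coactivator of octamer-binding factors, 14.1 ± 2.59 (SD, n = 3). A part of Mbtd1 or Pou2af1 in making histone mRNA was not shown here. Slbp, whose protein binds the stem-loop, had 9.77, 10.8 and 10.2 (10.3 ± 0.52, SD, n = 3).

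Against the same 45.2%, 20 of 24 genes of histone chaperones and deposition were occupied (83.3%). They were led by Rbbp4, a subunit of CAF-1, at 11.8 ± 1.52, Nap1l4 at 11.6 ± 0.55 and Tonsl at 10.9 ± 1.57 (SD, n = 3). Chaf1a, Mcm2 and Supt16 had peaks in 2 libraries each, and Set had none. Of 12 replacement and replication-independent histone genes found, 8 were occupied (66.7%). H2az2, which encodes an H2A.Z variant, had 16.6, 20.3 and 20.2 (19.0 ± 2.07, SD, n = 3), higher in each library than any clustered histone gene. H3f3a, of variant H3.3, had 11.3 ± 1.15 and Cenpa, of the centromere variant, 9.60 ± 0.17 (SD, n = 3). The other H3.3 gene, H3f3b, had no peak at an end, nor had H2al2a and H2bl1, and Macroh2a2 had peaks in 2 libraries.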

How the data were processed

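Peaks of 3 CUT&Tag libraries (single group) were used as the authors deposited them, 1 list per library. Per the submitters' processing notes, Bowtie2, SAMtools and MACS2 (versions not given) were used with the mm10 build; the sources used here do not mention duplicate removal or reads with several matches. The deposited columns used were the fold enrichment (a ratio), −log10 of the p-value and −log10 of the q-value, which was at least 1.3; the deposited score was not used. Fragment counts are not in the lists. Pileup and background were solved from fold, taken as (pileup + 1)/(background + 1), and the −log10 p of a Poisson tail, and 100% of pileups came out whole within 0.05 in each library.

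Peaks were joined by at least 1 bp, with python 3.11.15, numpy 2.4.6, pandas 2.3.3 and scipy 1.17.1, on code tested on simulated data. Gene positions, names and promoters are RefSeq's (GRCm38.p6). A gene takes the region with the highest mean fold within 1 kb. The genes named in the text are those without a region, the 10 highest and 5 lowest by fold and the 10 highest by pileup, all outside chromosome 13, regions of 3 genes, coding genes sharing a region, and the strongest of each related list; other histone genes are named to complete their pair or type and were picked after their values were seen. The members, the lists and the rule were chosen with earlier results of these data known. No test between conditions was possible. Alternatives were other overlap and q thresholds, windows, libraries left out, and the measures of strength.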

Additional observations from a re-analysis of the deposited data

How the results depend on the processing

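Of 13 alternatives, 12 left the number of occupied histone genes within 1.5 times of 60. That range includes a drop to 51 of 67 (76.1%) under 50% reciprocal overlap, where 38.2% of all protein-coding genes were occupied. The genes lost there were H3c13, H2bc18, H4c11, H2bc23, H2ac23, H4c17, H4c18, H2ac24 and H1f2. Leaving out each library in turn left the number of occupied histone genes at 60 to 61. With the 10000 strongest peaks of each library it was 39, where 20.6% of all protein-coding genes were occupied, with 20 regions and 14 of them shared. A 250 bp window gave 16 shared regions. The median fold moved by more than the SD of the library medians (0.113) with 50% reciprocal overlap (6.44), −log10 q of at least 5, a 3 kb window or clustered genes alone (6.31 each), the 10000 strongest peaks (7.26), a 250 bp window (6.02), the region whose summit is nearest to a gene end (6.003) and without library 3 (6.03), and was 6.03 to 6.29 over the libraries left out; 4 of 12 settings kept it within that SD. In every such setting with a value for all genes it stayed below theirs. The median pileup over background was 38.6 with the 10000 strongest peaks, against 35.9 for all occupied genes there, a smaller gap than 34.3 against 21.6, and it was 31.8 with a 250 bp window and 35.6 with a 3 kb window. Leaving out the 5 germ cell genes, chosen after seeing the data, gave 60 of 62 occupied, and the start alone within 250 bp, also added later, 50 of 62. No paired analysis was possible because there is a single group. The lists hold no fragment counts, so a gene without a peak is not shown to lack signal.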
